A study of Mus musculus with 12 samples.

Results

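Interferon-stimulated genes encode the proteins that cells make after sensing interferon, from sensors of viral RNA to enzymes and GTPases that act on intracellular pathogens. The set described here holds 43 of them, effectors induced by type I or type II interferon with the IRF transcription factors left out. Its members were listed by name, with earlier results of these data known. All 43 symbols were found among the 52635 genes of the deposited table, which gives each gene as FPKM, read fragments scaled to the gene's exon length and the library's depth. In 2 or more of the 12 libraries 32 members reached 1 FPKM and were tested, and the other 11 lay under this filter and are given by their levels alone. Ifit1 passed the filter only through the 4 TG libraries, so its higher level there was a condition of its being tested.

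The cells were naive CD4 T cells, more than 95% pure per the labels, of C57BL/6 mice, an inbred laboratory strain, labelled as wild type (WT), RARα KO or RARα TG. RARα, the product of Rara, is a nuclear receptor for retinoic acid (RA), the hormone form of vitamin A. Cells of each genotype were kept for 24 h without RA or with 10 nM RA, which gives 6 groups of 2 libraries each. What all groups shared was activation through CD3 and CD28, serum stripped with charcoal, which removes small lipids such as retinoids, the cytokines IL-6, IL-1β, IL-21, IL-23, TNFα and TGF-β1, and antibodies that block IFNγ and IL-4, a mix used to direct cells to the IL-17-producing Th17 state. Which allele the KO label stands for, and which construct and promoter the TG label, the labels do not say. Nor do the labels say that replicates came from separate mice, so a p-value here reflects no more than how far these libraries differ. In WT and under the KO label it is not known whether this spread is one between animals or technical. The TG replicates, 1 male and 1 female, came from different animals.

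By way of background, interferons of type I bind the receptor made of IFNAR1 and IFNAR2, and IFNγ binds IFNGR1 and IFNGR2. Kinases of the JAK family at these receptors then phosphorylate transcription factors that enter the nucleus and bind DNA at the interferon-stimulated response element (ISRE) or at the gamma-activated site (GAS). Many of these genes keep a basal level in T cells without added interferon, and Ddx58 encodes RIG-I, whose name stands for retinoic acid-inducible gene I.

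Depth, read from the steps of low FPKM values, was 16289969 to 25534588 reads a library. Rara itself was not lower in the libraries labelled KO (19.5 and 19.3 FPKM untreated, 16.8 and 17.6 treated) than in WT (16.5 and 18.9, then 12.3 and 14.2), so these are called the libraries labelled KO, and directions are drawn against that label. In TG it stood at 72.8 and 63.3 FPKM untreated and at 126 and 119 treated with RA. By Xist and Y-linked transcripts the WT libraries came from males and the KO-labelled ones from females, while TG had a male replicate 1 and a female replicate 2 at each dose. Summed FPKM of 6 CD4 T-cell markers ran from 555 to 970 and that of 2 CD8 markers from 1.55 to 4.18. Transcripts of other cells were present: 10 B-cell markers summed to 29.9 to 128 FPKM and 9 class II or dendritic-cell markers to 23.7 to 165. In every group the class II sum was larger in replicate 2 than in replicate 1. In WT it was 23.7 and 157 FPKM untreated (replicates 1 and 2) and 26.1 and 165 with RA. Under the KO label it was 26.5 and 73.2 FPKM, then 25.6 and 78.3. What set the replicates apart was not tested. Of 5 markers of plasmacytoid dendritic cells, the main producers of type I interferon, Siglech, Tcf4, Cox6a2 and Klk1 stayed under 1 FPKM in every library. With Spib, which did not, the 5 summed to 1.03 to 5.49 FPKM. In WT this sum was 1.12 and 5.49 FPKM untreated (replicates 1 and 2) and 1.17 and 5.44 with RA. Of 7 monocyte and macrophage markers 5 stayed under 1 FPKM, among them Itgam, listed at 0 throughout. With Lyz2 and Cd68 the 7 summed to 3.66 to 19.8 FPKM, and 5 NK-cell markers summed to 2.52 to 17.3 FPKM.

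Promoters of 2 members that fell with RA in TG (Gbp2, Gbp5), 4 that rose (Irgm1, Igtp, Irgm2, Ifit1) and 1 not called (Isg15) are shown first, because letters of the ISRE occur in all 7. They were chosen for these matches. Promoter sequences from RefSeq (build GRCm38.p6) were matched by symbol for 32 members. Unmatched were Dhx58, Gbp4, Gbp6, Ifi27, Iigp1, Mx1, Parp14, Parp9, Rtp4, Usp18 and Zbp1. Each sequence holds the 250 bases before the start annotated in RefSeq, on the gene's own strand, and distances below are from that start. Gene positions given further on are from GENCODE, whose start can differ. The windows of Gbp5, Irgm1 and Irgm2 lie inside the GENCODE gene, and those of Gbp2 and Ifit1 reach past its start. Capitals mark matches to the ISRE letters, taken as GAAA, any 2 bases and GAAA again (on the other strand TTTC, any 2 bases and TTTC), or to the GAS letters TTCNNNGAA, which read alike on both strands. Matches can share bases. The windows are, for Gbp2, chr3:142620413-142620662 (plus strand), for Gbp5, chr3:142496684-142496933 (plus), for Irgm1, chr11:48871421-48871670 (minus), for Igtp, chr11:58199306-58199555 (plus), for Irgm2, chr11:58214727-58214976 (plus), for Ifit1, chr19:34640639-34640888 (plus), and for Isg15, chr4:156200819-156201068 (minus).
Gbp2: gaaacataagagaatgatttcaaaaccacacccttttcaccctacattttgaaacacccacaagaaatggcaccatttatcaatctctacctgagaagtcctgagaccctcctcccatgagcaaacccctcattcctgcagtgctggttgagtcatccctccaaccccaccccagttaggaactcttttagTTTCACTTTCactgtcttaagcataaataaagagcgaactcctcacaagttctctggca
Gbp5: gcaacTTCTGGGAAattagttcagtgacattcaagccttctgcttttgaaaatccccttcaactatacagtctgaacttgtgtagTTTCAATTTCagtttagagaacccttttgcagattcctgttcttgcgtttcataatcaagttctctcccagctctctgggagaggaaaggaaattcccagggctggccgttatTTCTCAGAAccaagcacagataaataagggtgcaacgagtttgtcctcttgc
Irgm1: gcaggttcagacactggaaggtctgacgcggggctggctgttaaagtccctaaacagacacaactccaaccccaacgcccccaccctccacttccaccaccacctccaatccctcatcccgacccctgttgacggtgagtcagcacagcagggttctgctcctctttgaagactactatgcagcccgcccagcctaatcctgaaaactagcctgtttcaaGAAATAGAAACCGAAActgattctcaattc
Igtp: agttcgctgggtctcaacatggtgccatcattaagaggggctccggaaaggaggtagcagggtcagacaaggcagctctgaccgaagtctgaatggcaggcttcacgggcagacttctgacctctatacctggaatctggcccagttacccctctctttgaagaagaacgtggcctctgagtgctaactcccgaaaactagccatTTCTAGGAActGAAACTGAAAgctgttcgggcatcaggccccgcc
Irgm2: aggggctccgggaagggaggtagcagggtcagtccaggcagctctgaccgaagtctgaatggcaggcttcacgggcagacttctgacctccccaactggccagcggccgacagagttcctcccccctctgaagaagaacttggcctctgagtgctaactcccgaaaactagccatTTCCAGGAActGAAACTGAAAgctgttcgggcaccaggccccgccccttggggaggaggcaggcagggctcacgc
Ifit1: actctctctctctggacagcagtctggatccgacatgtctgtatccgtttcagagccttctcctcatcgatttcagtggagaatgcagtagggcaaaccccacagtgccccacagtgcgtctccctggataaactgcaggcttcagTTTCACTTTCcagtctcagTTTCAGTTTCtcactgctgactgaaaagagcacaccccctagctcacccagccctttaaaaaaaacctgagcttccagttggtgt
Isg15: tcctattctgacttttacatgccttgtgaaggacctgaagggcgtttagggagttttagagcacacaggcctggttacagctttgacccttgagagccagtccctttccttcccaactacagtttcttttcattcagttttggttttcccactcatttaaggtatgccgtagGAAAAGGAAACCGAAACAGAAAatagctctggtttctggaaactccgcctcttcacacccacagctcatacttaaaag

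Gbp2 and Gbp5, which fell with RA, have an ISRE match beginning 59 and 165 bases before the start, and Gbp5 has GAS matches at 245 and 52 bases. Irgm1, which rose, has overlapping ISRE matches at 30 and 24 bases. Igtp and Irgm2 share a GAS and an ISRE match side by side, 45 and 34 bases before the start in Igtp and 75 and 64 in Irgm2. Ifit1 has ISRE matches at 104 and 85 bases and Isg15 a run of 3 overlapping ones from 78 bases. The ISRE letters occurred in 16 of the 36 promoters of the 32 matched members (44.4%), against 978 of all 32851 RefSeq promoters of the same length (2.98%), and the GAS letters in 9 of 36 (25%) against 2306 (7.02%). Of matched members that rose with RA in TG, 6 of 10 held the ISRE letters, while Dtx3l, Herc6, Ifi47 and Trim21 did not, and of those that fell, 4 of 6 held them, while Slfn1 and Slfn2 did not. Of matched members not called there 3 of 8 held them, and of those under the filter 3 of 8. Whether these shares differ was not tested. A match is a description of the letters, and no binding was measured here.

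Basal levels of the members spanned a wide range. The median over the 12 libraries was at least 10 FPKM for 12 members, between 1 and 10 for 17 and under 1 for 14. The highest in WT without RA were Slfn2, a Schlafen-family regulator of T-cell quiescence (176 ± 2.07 FPKM, mean ± SD, n = 2 as in every group), and Gbp2, a guanylate-binding GTPase that coats intracellular pathogens (138 ± 38.8). Next in order were Ifi47 (97.7 ± 10.8), Bst2 (91.5 ± 0.540) and Igtp (65.3 ± 0.767). The gap between Slfn2 and Gbp2 was within the SD of Gbp2, and Ifi47 and Bst2 overlapped, with 105 and 90.1 FPKM for Ifi47 and 91.1 and 91.8 for Bst2. The antiviral effectors best known from infected cells were low. Rsad2 (viperin) reached at most 0.0521 FPKM in any library and Mx1, a GTPase that restricts influenza virus, 0.108. The other members under the filter reached at most 0.192 (Cmpk2), 0.307 (Gbp6), 0.442 (Oas1a), 0.531 (Rtp4), 0.597 (Xaf1), 0.630 (Oasl2), 0.930 (Ifih1), 1.01 (Isg20) and 1.24 (Ifit3). Rsad2 had 0 to 4 recovered reads a library, so no difference between groups was detectable at this depth.

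**Figure D1:**
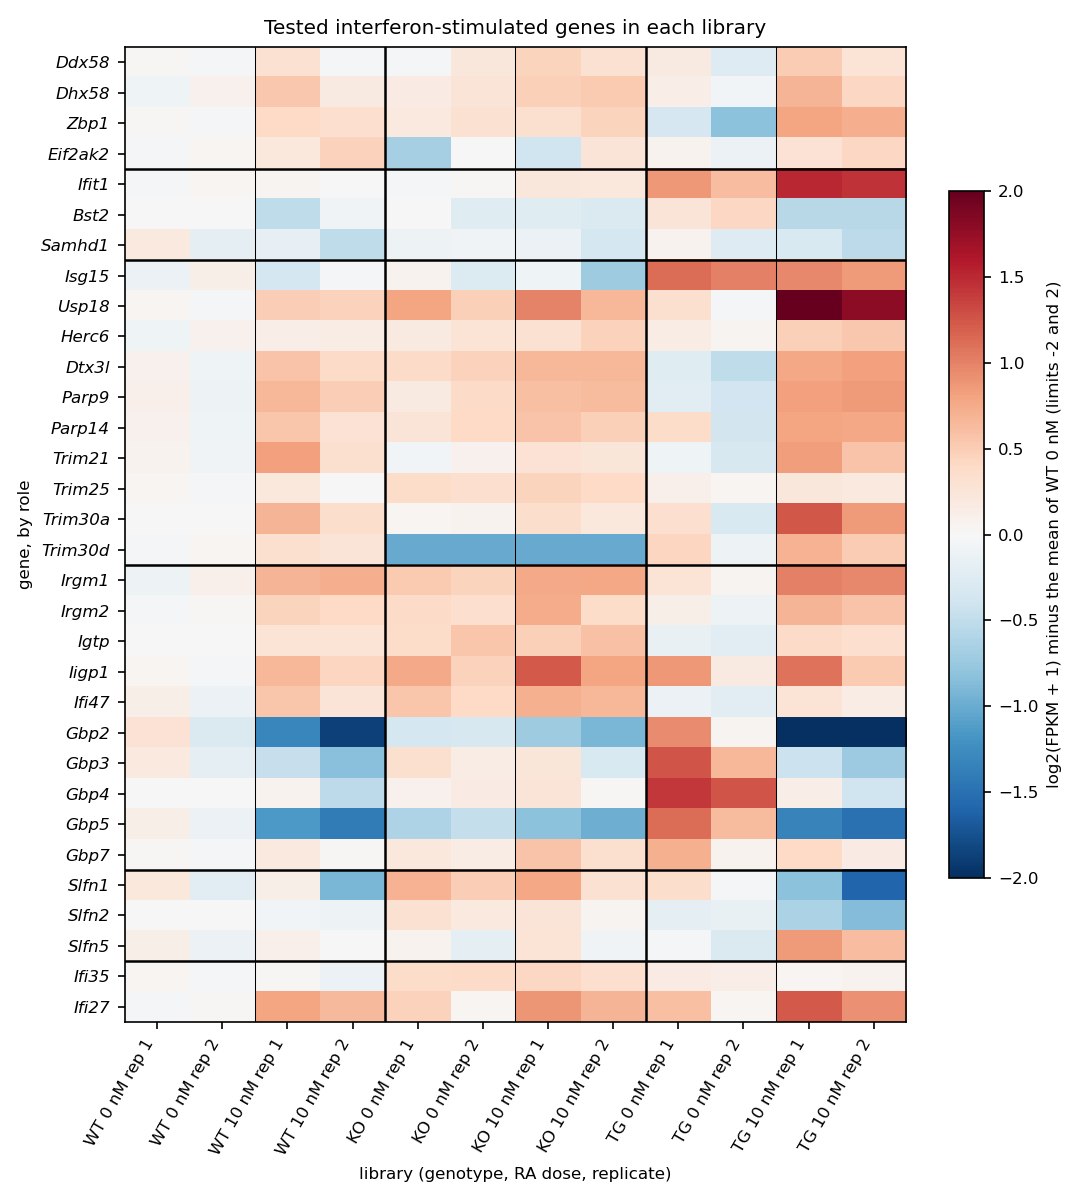
Level of each of the 32 tested members in each of the 12 libraries, as log2(FPKM + 1) minus the mean of the 2 WT libraries without RA; rows are genes grouped by role, columns are libraries, and colours run from -2 (blue) to 2 (red). Gbp2 is lowest and Usp18 and Ifit1 are highest in TG with RA, Gbp5 is lowest in the WT and TG libraries with RA, which overlap, and Isg15 is high in all 4 TG libraries.

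RA within each genotype was the first comparison. In WT, 4 of the 32 tested members rose (Irgm1, Parp9, Dtx3l and Igtp) and 2 fell (Gbp5 and Gbp2), while of all 11922 tested genes 6.67% rose and 3.47% fell, 10.1% in all (limma, adjusted p under 0.05 over all tested genes). In TG, 16 members rose and 7 fell, where 19.7% of all genes rose and 19.4% fell, 39.1% in all. Under the KO label none was called by limma, against 0.143% of all genes. There 4 members (Parp9, Irgm1, Ifi27 and Dtx3l) had an unadjusted p under 0.05, and voom on recovered reads also called 0, with 5 at that unadjusted p. The median RA effect on the 32 members, as log2 fold change of FPKM + 1, was 0.20 in WT, 0.18 under the KO label and 0.42 in TG, beside 0.02, 0.01 and -0.02 over all tested genes. Its median size regardless of sign was 0.37, 0.22 and 0.74, beside 0.12, 0.09 and 0.22. Both treated libraries lay above both untreated ones for 17 members and below them for 5 in WT, where 53.8% of all tested genes separated (31% above, 22.8% below). Under the KO label these counts were 16 and 4, beside 42.3% (24.1% and 18.2%), and in TG 20 and 10, beside 71.1% (33.5% and 37.6%). The size of the RA effect was larger in TG than in WT for 28 of the 32 members, beside 72.6% of all tested genes, and smaller under the KO label than in WT for 25, beside 67.8%. It reached a size of 1 or more for 2 members in WT, 0 under the KO label and 10 in TG.

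**Figure D2:**
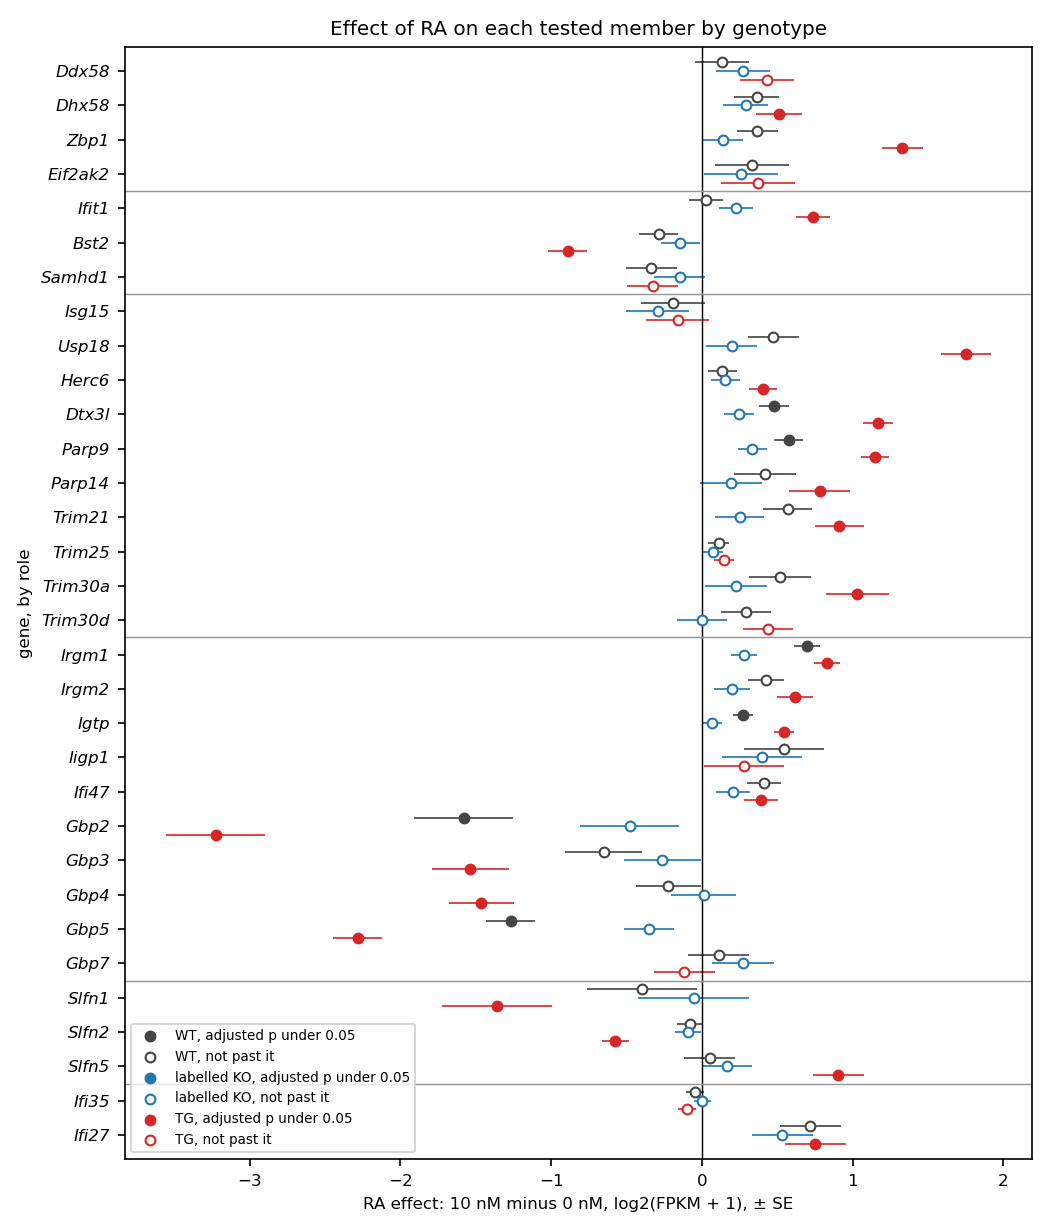
RA effect (10 nM minus 0 nM) on each tested member in WT (grey), under the KO label (blue) and in TG (red), as log2(FPKM + 1) differences with bars of 1 SE; filled points have an adjusted p under 0.05. Among the TG points those of Gbp2, Gbp5, Gbp3 and Gbp4 lie furthest to the left, from -3.23 to -1.46, and Usp18 in TG lies furthest to the right at 1.75.

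Guanylate-binding proteins are GTPases that assemble on the membranes of intracellular parasites and bacteria. Of the 5 tested members of this family Gbp2 and Gbp5 fell with RA in WT and in TG, Gbp3 and Gbp4 in TG, and Gbp7 was called nowhere. Gbp2 (chr3:142620602-142638008) stood at 165 and 111 FPKM in untreated WT (replicate 1, then 2, as throughout) and at 54.4 and 36.5 with RA. In TG it stood at 262 and 141 FPKM without RA and at 24.4 and 15.8 with RA, and under the KO label at 106 and 108, then 82.7 and 71.0. All libraries with RA lay below all libraries of their own genotype without it, and the TG libraries held both the highest and the lowest values of the study. The log2 fold change of Gbp2 was -1.58 ± 0.33 in WT (± SE, adjusted p = 0.021), -0.48 ± 0.33 under the KO label (adjusted p = 0.66) and -3.23 ± 0.33 in TG (adjusted p = 0.00012). The WT call ended without replicate 1 or 2 of WT 0 nM (-1.29 and -1.87) or replicate 2 of WT 10 nM (-1.30). Whether fewer cells carried these transcripts or each cell carried fewer cannot be told apart in bulk RNA.

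Gbp5 (chr3:142493978-142522344), a GTPase that also promotes inflammasome assembly, followed the same course at lower levels. It stood at 18.7 and 15.7 FPKM in untreated WT and at 7.22 and 5.90 with RA, at 38.5 and 27.1 in TG without RA and at 6.22 and 5.48 with RA. Under the KO label it stood at 10.8 and 12.02 FPKM, then 9.28 and 8.18. No library with RA reached the lowest library without RA of its genotype, and with RA the WT and TG libraries overlapped in range while they were far apart without it. RA lowered Gbp5 by 1.27 ± 0.16 in WT (log2 fold change -1.27, adjusted p = 0.0029) and by 2.28 ± 0.16 in TG (-2.28, adjusted p = 1.7e-05), and its effect under the KO label was -0.35 ± 0.16 (adjusted p = 0.49). The calls of Gbp5 in WT and TG held without any 1 of the libraries compared (-1.39 to -1.14 and -2.53 to -2.04). The fall in TG was larger than that in WT by 1.02 ± 0.23 (difference of log2 fold changes -1.02, adjusted p = 0.034), a call that ended in 6 of the 8 fits without 1 library, where it ran from -1.26 to -0.77.

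Gbp3 and Gbp4, further members of that family, were called for RA in TG only, and the difference from WT was called for Gbp4. Gbp3 stood at 12.8 and 8.11 FPKM in untreated TG and at 3.28 and 2.49 with RA (-1.54 ± 0.25, adjusted p = 0.0017), and in WT at 5.58 and 4.06, then 3.19 and 2.22 (-0.65 ± 0.25, adjusted p = 0.15). Under the KO label it stood at 6.19 and 5.37 FPKM, then 5.80 and 3.68. Gbp4 stood at 7.59 and 6.70 FPKM in untreated TG and at 2.55 and 1.45 with RA (-1.46 ± 0.22, adjusted p = 0.00091). In WT Gbp4 stood at 2.21 and 2.24 FPKM, then 2.40 and 1.25, and under the KO label at 2.43 and 2.62, then 2.86 and 2.26. The 2 TG libraries without RA thus stood above the other 10 for both genes. For Gbp4 the effect in TG differed from that in WT by -1.24 ± 0.31 (adjusted p = 0.046), which 6 of 8 fits without 1 library did not call (-1.54 to -0.94). The difference for Gbp3 was -0.88 ± 0.36 (adjusted p = 0.20), not past the threshold. Gbp7 ranged from 0.583 to 1.64 FPKM over the 12 libraries and was called in none of the 9 comparisons. Gbp2, Gbp3, Gbp5 and Gbp7 lie in a row on chromosome 3, and reads of these related genes may be divided among them.

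Of the 5 tested immunity-related GTPases, a family that acts on intracellular pathogens, Irgm1, Irgm2, Igtp and Ifi47 rose with RA in TG, and Irgm1 and Igtp also in WT. Irgm1 (chr11:48861968-48871683), a regulator of this family, stood at 4.24 and 5.02 FPKM in untreated WT and at 7.95 and 8.26 with RA, and in TG at 5.76 and 4.81, then 10.3 and 9.91. Under the KO label it stood at 7.09 and 6.68 FPKM without RA and at 8.49 and 8.66 with RA. Both libraries with RA were above both without in each genotype, and the KO-labelled libraries without RA were above the WT and TG libraries without RA. Irgm1 rose with RA in WT (0.70 ± 0.09, adjusted p = 0.0026) and in TG (0.83 ± 0.09, adjusted p = 0.00016), calls that held without any 1 library (0.60 to 0.80 and 0.72 to 0.94), and its effect under the KO label was 0.28 ± 0.09 (adjusted p = 0.31). The difference of the RA effect, KO minus WT, was -0.42 ± 0.13 (adjusted p = 0.63).

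Igtp (chr11:58199556-58207591), a GTPase of the same family, stood at 64.8 and 65.9 FPKM in untreated WT and at 78.7 and 79.2 with RA. It stood at 59.1 and 56.1 in TG, then 85.7 and 82.9, and under the KO label at 84.9 and 96.7, then 91.4 and 98.6. The WT and TG libraries separated by dose, whereas the KO-labelled ones overlapped. RA raised Igtp by 0.54 ± 0.07 in TG (adjusted p = 0.00033). In WT the effect was 0.27 ± 0.07 (adjusted p = 0.038), and leaving out any 1 of the 4 WT libraries ended that call, although the value stayed at 0.26 to 0.28. Irgm2 and Ifi47 of the same family rose in TG (0.62 ± 0.12, adjusted p = 0.0036, and 0.39 ± 0.11, adjusted p = 0.023) and narrowly missed the threshold in WT (0.42 ± 0.12, adjusted p = 0.058, and 0.41 ± 0.11, adjusted p = 0.055). The call of Ifi47 ended without TG 0 nM replicate 2 (0.34) or TG 10 nM replicate 1 (0.33). Iigp1 ranged from 1.36 to 4.65 FPKM and was called in none of the 9 comparisons. Igtp and Irgm2 overlap on chromosome 11 of the annotation on the same strand, so their reads may be shared.

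**Figure D3:**
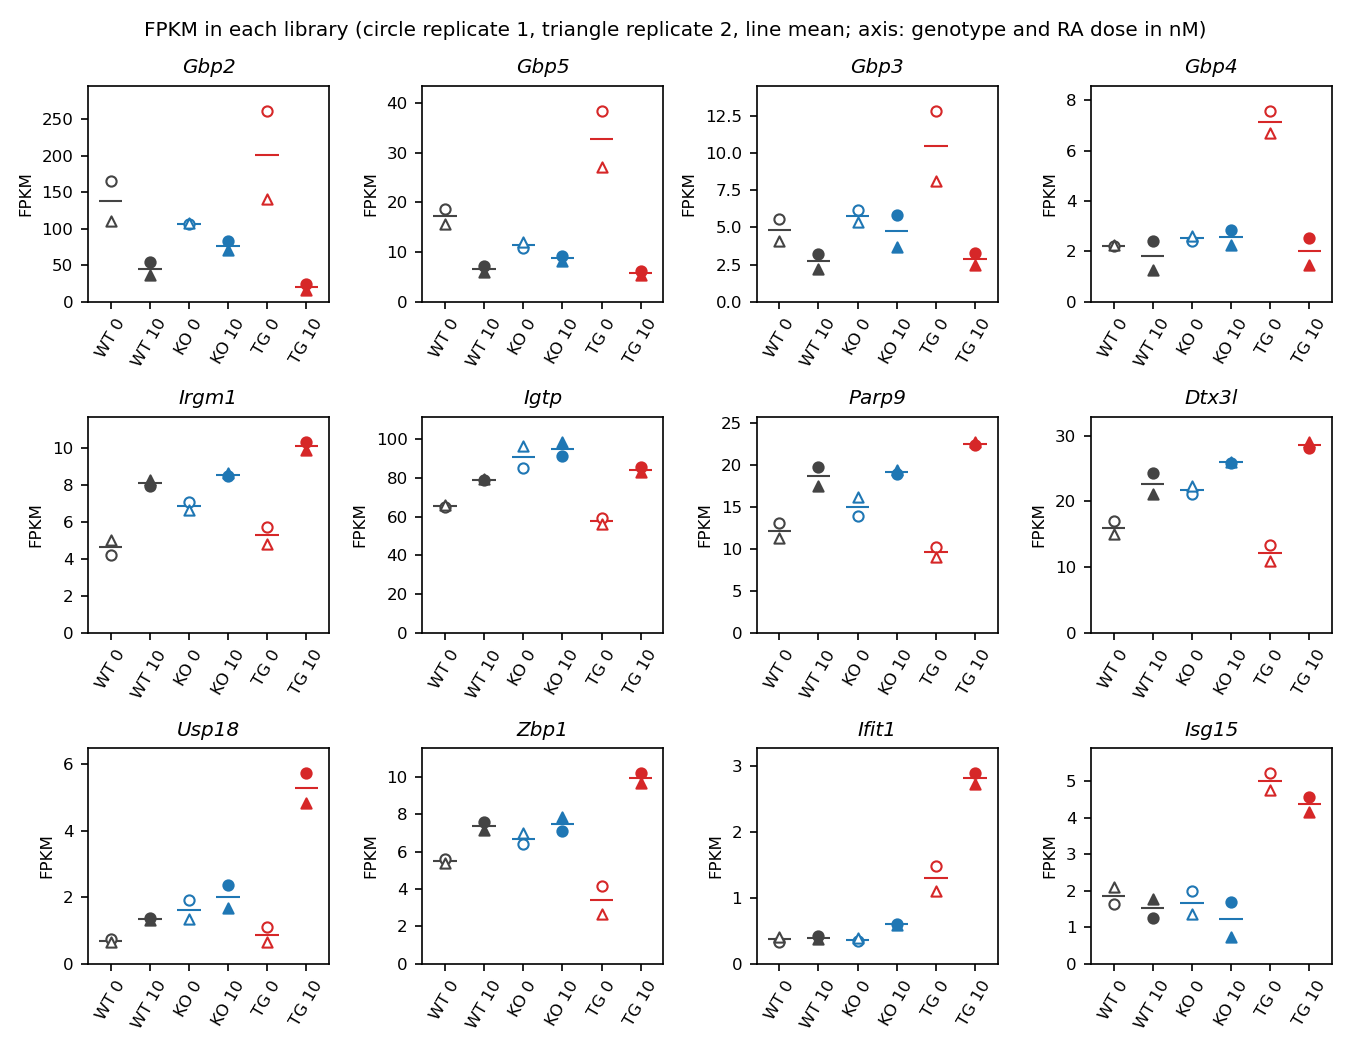
FPKM in each of the 12 libraries for 12 members, 1 panel a gene, with genotype and RA dose in nM along the axis, circles for replicate 1, triangles for replicate 2 and a line at the mean of the 2; every axis starts at 0. With RA, Gbp2 drops in TG from 262 and 141 to 24.4 and 15.8 FPKM, while Irgm1, Parp9 and Dtx3l go up in both WT and TG.

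Of enzymes of the ubiquitin, ISG15 and ADP-ribose systems 7 of 10 tested rose with RA in TG and 0 fell, where 19.7% of all tested genes rose and 19.4% fell. Parp9 and Dtx3l encode an ADP-ribosyltransferase and an E3 ligase that act as a complex in interferon signalling, and their genes lie side by side with overlapping ends (Dtx3l at chr16:35926511-35939151 and Parp9 at chr16:35938470-35972605), so reads from the overlap may be uncertain. Parp9 stood at 13.1 and 11.3 FPKM in untreated WT and at 19.8 and 17.5 with RA, at 10.2 and 9.08 in TG, then 22.3 and 22.8, and under the KO label at 13.9 and 16.2, then 18.9 and 19.4. Dtx3l stood at 17.0 and 15.0 FPKM in untreated WT and at 24.2 and 21.1 with RA, at 13.4 and 10.95 in TG, then 28.1 and 29.1, and under the KO label at 21.2 and 22.3, then 25.9 and 26.0. For both genes each genotype separated by dose, with TG lowest without RA and highest with it. Parp9 rose by 0.58 ± 0.10 in WT (adjusted p = 0.0085) and by 1.15 ± 0.10 in TG (adjusted p = 3.8e-05), and Dtx3l by 0.48 ± 0.10 (adjusted p = 0.021) and 1.17 ± 0.10 (adjusted p = 4.1e-05). Both WT calls ended without WT 0 nM replicate 2 (0.48 for Parp9, 0.39 for Dtx3l) or WT 10 nM replicate 1 (0.49 and 0.38). Their rises in TG exceeded those in WT by 0.57 ± 0.14 (adjusted p = 0.039) and 0.69 ± 0.14 (adjusted p = 0.021), and 5 of 8 fits without 1 library did not call the difference for Parp9 (0.47 to 0.67) or for Dtx3l (0.56 to 0.83).

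Usp18 (chr6:121245906-121270917), the protease that removes ISG15 from proteins and dampens signalling at IFNAR2, rose with RA in TG by 1.75 ± 0.17 (adjusted p = 7.8e-05). It stood at 1.11 and 0.646 FPKM in untreated TG and at 5.74 and 4.82 with RA. In WT it stood at 0.731 and 0.648 FPKM, then 1.37 and 1.32 (0.47 ± 0.17, adjusted p = 0.11), and under the KO label at 1.91 and 1.35, then 2.36 and 1.67. The TG libraries with RA stood above the other 10. The difference of the RA effect between TG and WT was 1.28 ± 0.24 (adjusted p = 0.014), and that call ended without WT 0 nM replicate 1 (1.24) or TG 10 nM replicate 1 (1.17).

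Isg15 (chr4:156199424-156200818), the ubiquitin-like modifier itself, did not follow its protease. It stood at 1.64 and 2.09 FPKM in untreated WT and at 1.25 and 1.79 with RA, under the KO label at 1.99 and 1.36, then 1.69 and 0.743, and in TG at 5.23 and 4.77, then 4.57 and 4.16. The TG libraries lay above all others at both doses, and doses overlapped in WT and under the KO label. The RA effect was -0.19 ± 0.21 in WT (adjusted p = 0.63), -0.29 ± 0.21 under the KO label (adjusted p = 0.68) and -0.16 ± 0.21 in TG (adjusted p = 0.59), none past the threshold.

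Among E3 ligases of this group, Trim21, the cytosolic antibody receptor, rose in TG by 0.91 ± 0.16 (adjusted p = 0.0026) from 4.19 and 3.40 to 8.80 and 7.23 FPKM. Trim30a, an inhibitor of NF-κB signalling, rose there by 1.03 ± 0.21 (adjusted p = 0.0045) and Parp14, a mono-ADP-ribosyltransferase, by 0.78 ± 0.20 (adjusted p = 0.016). Herc6, the mouse ligase for ISG15, rose by 0.41 ± 0.10 (adjusted p = 0.0097). The call of Parp14 ended without TG 10 nM replicate 1 (0.77) or replicate 2 (0.79), and that of Herc6 without TG 0 nM replicate 2 (0.35) or TG 10 nM replicate 2 (0.38). Trim25, the ligase that activates RIG-I, was not called for RA in any genotype (0.11 ± 0.07 in WT, 0.14 ± 0.07 in TG).

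Sensors of viral nucleic acid stood at low to middle levels. Ddx58 (chr4:40203773-40239828), the RIG-I gene, stood at 1.65 and 1.57 FPKM in untreated WT and at 2.24 and 1.53 with RA, under the KO label at 1.57 and 2.05, then 2.55 and 2.21, and in TG at 1.96 and 1.18, then 2.72 and 2.15. WT overlapped between doses, and the libraries under the KO label and of TG with RA lay above those without. Despite its name Ddx58 was not called for RA in any genotype. Its effect was 0.13 ± 0.18 in WT (adjusted p = 0.70), 0.27 ± 0.18 under the KO label (adjusted p = 0.64) and 0.43 ± 0.18 in TG (adjusted p = 0.088). The TG effect was past the threshold with voom on recovered reads (0.68), with a sex term (0.43) and without TG 0 nM replicate 1 (0.65).

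Dhx58, which encodes LGP2, a partner of RIG-I, stood at 0.929 and 0.694 FPKM in untreated TG and at 1.82 and 1.36 with RA. In WT it stood at 0.664 and 0.880 FPKM, then 1.57 and 1.01, and under the KO label at 0.971 and 1.12, then 1.46 and 1.55. All 3 genotypes separated by dose, and TG was called (0.51 ± 0.15, adjusted p = 0.026), with values of 0.36 ± 0.15 in WT (adjusted p = 0.17) and 0.29 ± 0.15 under the KO label (adjusted p = 0.54). The TG call ended without TG 0 nM replicate 2 (0.42) or TG 10 nM replicate 1 (0.38). Zbp1 (chr2:173206612-173218923), a sensor of Z-form nucleic acid that can start necroptosis, stood at 4.15 and 2.67 FPKM in untreated TG and at 10.2 and 9.67 with RA. In WT Zbp1 stood at 5.59 and 5.38 FPKM, then 7.56 and 7.17, and under the KO label at 6.39 and 6.99, then 7.11 and 7.83. Its TG libraries were the lowest of all without RA and the highest of all with it. Zbp1 rose by 1.33 ± 0.14 in TG (adjusted p = 0.00012), and this rise exceeded that in WT by 0.96 ± 0.19 (adjusted p = 0.020), a difference that 5 of 8 fits without 1 library did not call (0.72 to 1.21). Eif2ak2, the double-stranded RNA-activated kinase PKR, was called in none of the 9 comparisons, and replicate 1 under the KO label was low at both doses (2.45 and 3.14 FPKM, against 4.45 and 5.53 in replicate 2).

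Of the antiviral effectors 3 were tested. Ifit1 (chr19:34640871-34650009), which binds viral RNA caps, stood at 1.49 and 1.11 FPKM in untreated TG and at 2.89 and 2.73 with RA, and at 0.334 to 0.605 in the 8 libraries of the other genotypes. Its recovered reads were 75 to 184 in TG and 16 to 29 elsewhere. RA raised it in TG by 0.73 ± 0.11 (adjusted p = 0.0011), and the effect in WT was 0.03 ± 0.11 (adjusted p = 0.91). The TG effect exceeded that in WT by 0.71 ± 0.16, past the threshold in the reported fit. It was not called in 7 of 8 fits without 1 library (0.59 to 0.83), with a pseudocount of 0.1 (0.99) or with voom (1.02). Ifit1 was tested only because of its TG level, so its comparisons of TG with WT are given without p-values. Bst2, or tetherin, which holds budding virus at the cell surface, fell with RA in TG from 110.1 and 122 FPKM to 62.1 in each library (-0.89 ± 0.13, adjusted p = 0.00085). In WT Bst2 stood at 91.1 and 91.8 FPKM, then 64.3 and 87.0 (-0.29 ± 0.13, adjusted p = 0.21). Samhd1, a dNTP hydrolase that limits retroviruses, ranged from 30.6 to 50.9 FPKM and was called in none of the 9 comparisons.

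The Schlafen genes, regulators of lymphocyte growth and quiescence, divided in TG. Slfn1 stood at 23.3 and 17.7 FPKM in untreated TG and at 9.84 and 5.36 with RA (-1.36 ± 0.37, adjusted p = 0.018), a call that ended without TG 0 nM replicate 1 (-1.17) or TG 10 nM replicate 2 (-0.98). Slfn2 stood at 154 and 158 FPKM, then 113 and 96.6 (-0.57 ± 0.09, adjusted p = 0.0010). Slfn5 rose from 0.889 and 0.588 to 2.51 and 2.00 FPKM (0.91 ± 0.17, adjusted p = 0.0031). In WT the 3 effects were -0.40 ± 0.37 for Slfn1, -0.08 ± 0.09 for Slfn2 and 0.05 ± 0.17 for Slfn5, none past the threshold. For Slfn2 the difference between TG and WT was called (-0.49 ± 0.12, adjusted p = 0.047) and lost in 7 of 8 fits without 1 library (-0.61 to -0.38). Of the remaining tested members Ifi27, a small membrane protein, rose in TG (0.75 ± 0.20, adjusted p = 0.018), where the call ended without TG 0 nM replicate 2 (0.47) or TG 10 nM replicate 1 (0.60). Its value in WT was 0.72 ± 0.20 (adjusted p = 0.059).

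Markers of other cells differed between the same TG libraries. The 10 B-cell markers summed to 31.6 and 34.5 FPKM in TG without RA and to 109 and 107 with RA, of which Ighm, the heavy chain of IgM, made up 27.5 and 27.6, then 101 and 95.9. Ighm was the 1 B-cell marker called among 9 tested, and 3 of the 9 had effects below 0. The 9 class II or dendritic-cell markers summed to 27.5 and 43.9 FPKM, then 32.2 and 43.02. The 6 CD4 T-cell markers summed to 627 and 555 FPKM in TG without RA and to 886 and 781 with RA. With RA in TG 5 of these 6 rose (Cd3e, Cd4, Lck, Cd3d and Trac), beside 19.7% of all tested genes. Their effects over the 6 ran from 0.40 to 0.80, with a median of 0.46. Itgax of the class II or dendritic-cell markers also rose there, while Cd68 and the NK-cell marker Klre1 fell. In WT the B-cell sums were 29.9 and 105 FPKM untreated and 56.1 and 128 treated, and the CD4 sums 745 and 675, then 886 and 796. Their part in the RA effects on the members was not tested.

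Genotype was then compared at each dose, with the WT libraries shared between the comparisons with KO and with TG. Against WT without RA, 4 members were higher under the KO label (Igtp, Ifi35, Irgm1 and Trim25) and 1 was lower (Trim30d), beside 1.74% of all tested genes called, 1.16% higher and 0.579% lower. With RA, Ifi35 was higher and Trim30d lower, 2 of 32 members beside 0.881% of all tested genes (0.47% higher, 0.411% lower). Without RA both KO-labelled libraries lay above both WT ones for 20 members and below for 3, where 47.7% of all tested genes separated (27.6% above, 20.1% below), and with RA for 16 and 2, where 37.2% did (19.6% and 17.7%). Ifi35, a binding partner of NMI, stood at 39.1 and 39.5 FPKM without RA and at 40.7 and 38.3 with RA under the KO label, and at 31.1 and 29.4, then 30.9 and 27.8, in WT. In TG Ifi35 stood at 34.0 and 33.3 FPKM, then 31.0 and 31.7. The KO-labelled libraries lay above the other 8 at both doses, and no genotype had an RA effect on Ifi35 past the threshold. The difference from WT was 0.37 ± 0.06 without RA (adjusted p = 0.023) and 0.42 ± 0.06 with RA (adjusted p = 0.014). Trim25 stood at 19.2 and 18.7 FPKM, then 20.2 and 19.7 under the KO label, against 15.1 and 14.1, then 17.1 and 14.8 in WT (0.35 ± 0.07, adjusted p = 0.045 without RA, 0.31 ± 0.07, adjusted p = 0.097 with RA). Igtp was higher by 0.47 ± 0.07 (adjusted p = 0.014) and Irgm1 by 0.49 ± 0.09 (adjusted p = 0.037) without RA, and with RA their differences were 0.26 ± 0.07 (adjusted p = 0.16) and 0.07 ± 0.09 (adjusted p = 0.85).

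Most of these calls did not hold without single libraries. With 1 library left out, 0 members were called without RA in 3 of 4 fits, and 1 (Igtp, 0.56) without KO 0 nM replicate 1. The values themselves ran from 0.37 to 0.56 for Igtp, 0.33 to 0.41 for Ifi35, 0.39 to 0.59 for Irgm1 and 0.31 to 0.40 for Trim25. With RA the call of Ifi35 ended without WT 10 nM replicate 2 (0.34) or KO 10 nM replicate 1 (0.37). All WT libraries were male and all KO-labelled ones female. With a sex term, which only the TG libraries inform, limma called 0 members at either dose. The values without RA were then 0.63 for Irgm1, 0.53 for Igtp, 0.39 for Trim25 and 0.37 for Ifi35, with adjusted p of 0.098 to 0.20, and with RA 0.42 for Ifi35 (adjusted p = 0.20). All 4 members that were higher without RA lie on chromosome 11, which also carries Rara and 11 of the 43 members. Of 993 tested genes on that chromosome 2.52% were called and 2.11% were higher under the KO label, against 1.67% and 1.07% of 10929 genes elsewhere.

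Trim30d (chr7:104470014-104507849), a relative of Trim30a, was listed at 0 in all 4 libraries labelled KO. It stood at 0.955 and 1.07 FPKM in untreated WT, 1.52 and 1.40 in treated WT, 1.70 and 0.875 in untreated TG and 2.25 and 1.85 in treated TG, from 71 to 177 recovered reads in each of these 8 libraries. The fitted difference was called at both doses (adjusted p = 0.026 and 0.0089) and, as the fit sets a pseudocount against listed zeros, no fold is given. Both calls ended when any 1 of the libraries compared was left out, with fitted values of -1.05 to -0.97 and -1.33 to -1.27. Neighbours of Trim30d on chromosome 7, looked up after its values were seen, went with it in part. Trim12a was also listed at 0 in the 4 libraries and had 1.24 and 0.576 FPKM in untreated WT. Trim5 reached at most 0.0305 FPKM under the KO label, against 0.588 and 0.291 in WT without RA, whereas Trim34b stood at 0.408 to 0.577 FPKM under the KO label and at 0 in WT and TG without RA. Trim34a, from the list of further interferon-stimulated genes, stood at 0.342 and 0.173 FPKM under the KO label with RA and at 3.25 and 2.20 in WT (-1.56 ± 0.23, adjusted p = 0.017), a call that no fit lacking 1 library made (-1.76 to -1.35). Trim30a beside it stood at 7.41 and 7.56 FPKM under the KO label and at 7.14 and 7.18 in WT without RA.

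TG was compared with WT in the same way. Without RA, 4 members were higher in TG and 0 lower, beside 4.31% of all tested genes called, 2.25% higher and 2.06% lower. Gbp4 was higher by 1.33 ± 0.22 (adjusted p = 0.015), Isg15 by 1.07 ± 0.21 (adjusted p = 0.028) and Gbp5 by 0.88 ± 0.16 (adjusted p = 0.024). Ifit1, also among the 4, was higher by 0.74 ± 0.11, given without a p-value because its TG level was the condition of its being tested. Both TG libraries lay above both WT libraries for each of these, and over all 32 members for 10, with 7 below, where 48.1% of all tested genes separated (26.1% above, 22% below). The calls of Gbp4 (1.26 to 1.41) and Isg15 (0.96 to 1.18) ended without any 1 of the 4 libraries, and those of Gbp5 (0.63 to 1.12) and Ifit1 (0.62 to 0.86) in each fit but that without TG 0 nM replicate 2. Zbp1 was at -0.58 ± 0.14 (adjusted p = 0.054), Dtx3l at -0.37 ± 0.10 (adjusted p = 0.081) and Gbp3 at 0.96 ± 0.25 (adjusted p = 0.077), none past the threshold.

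With RA, 5 members were higher in TG than in WT and 1 was lower, beside 11.5% of all tested genes called, 6.84% higher and 4.64% lower. Usp18 was higher by 1.42 ± 0.17 (adjusted p = 0.0011), Isg15 by 1.10 ± 0.21 (adjusted p = 0.012), Slfn5 by 0.68 ± 0.17 (adjusted p = 0.034) and Herc6 by 0.37 ± 0.10 (adjusted p = 0.039). Ifit1, also among the 5, was higher by 1.45 ± 0.11, again without a p-value because its TG level was the condition of its being tested. Slfn2 was lower (-0.67 ± 0.09, adjusted p = 0.0018). Both TG libraries lay above both WT ones for 16 members and below for 3, where 54.4% of all tested genes separated (24.5% above, 29.9% below). The calls of Usp18 and Slfn2 held without any 1 library (1.31 to 1.52 and -0.78 to -0.56), and the value of Ifit1 ran from 1.42 to 1.48. Those of Slfn5 (0.57 to 0.80) and Herc6 (0.35 to 0.40) ended in all 4 such fits, and that of Isg15 (0.94 to 1.25) in each but that without WT 10 nM replicate 2. Gbp2 and Gbp5, the members that fell most, differed from WT with RA by -1.14 ± 0.33 (adjusted p = 0.061) and -0.14 ± 0.16 (adjusted p = 0.65). Of the 4 TG rises without RA, that of Isg15 was called at both doses and Ifit1 was higher at both, whereas Gbp4 stood at 0.10 ± 0.22 (adjusted p = 0.83) with RA.

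Whether RA acted by the same amount in each genotype was tested directly. The RA effect in TG differed from that in WT for 8 of 32 members, with 5 rises (Usp18, Zbp1, Dtx3l, Ifit1 and Parp9) and 3 falls (Gbp5, Gbp4 and Slfn2) larger in TG, beside 7.48% of all tested genes (4.75% and 2.73% by sign of the difference). Of these 8, Ifit1 was tested only because of its TG level. The RA effect under the KO label differed from that in WT for 0 members in limma, beside 0.00839% of all tested genes. In that comparison 3 members had an unadjusted p under 0.05, namely Gbp5 (0.92 ± 0.23, adjusted p = 0.48), Irgm1 (-0.42 ± 0.13, adjusted p = 0.63) and Gbp2 (1.10 ± 0.47, adjusted p = 0.90), and voom also called 0, with 3 at that unadjusted p. For Gbp5 the effects of -2.28 in TG and -1.27 in WT thus differed past the threshold, while the difference between -0.35 under the KO label and WT did not pass it. These comparisons share the WT libraries.

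How much of each member's spread went with RA, with genotype or with their combination was described by the shares of its sum of squares over the 12 libraries. RA dose held the largest share for 17 of 32 members, genotype for 10, the combination of both for 2 and the difference between replicates for 3. Median shares over the members were 41.3% for dose, 15.1% for genotype, 12.7% for the combination and 9.74% between replicates, beside 21.6%, 19.9%, 13.0% and 25.2% over all tested genes. Dose led for Parp9 (73.9%), Irgm1 (73.6%), Ifi27 (69.7%), Gbp5 (66.5%) and Gbp2 (63.6%). Genotype led for Ifi35 (91.3%), Trim30d (91.0%), Isg15 (88.2%), Ifit1 (82.4%), Trim25 (78.6%) and Slfn2 (69.2%). Ifit1 was tested only because of its TG level, so a large genotype share was a condition of its being counted here. Between WT and the KO label, genotype and sex cannot be told apart in these shares. The combination was largest for Slfn5 (35.5%) and Gbp4 (34.7%), and replicates for Gbp7 (49.6%), Samhd1 (46.8%) and Eif2ak2 (41.9%).

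**Figure D4:**
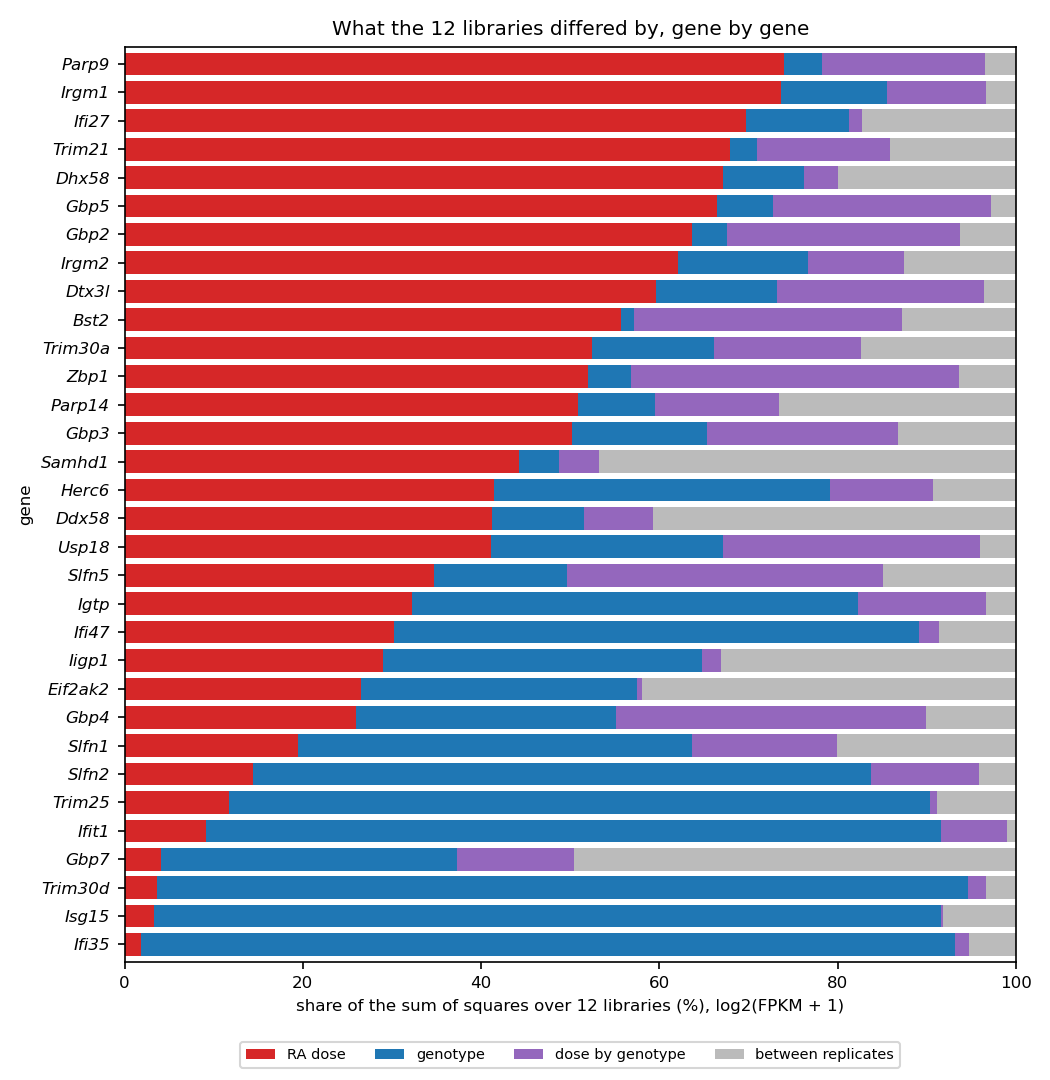
Share of the sum of squares of log2(FPKM + 1) over the 12 libraries that went with RA dose (red), genotype (blue), their combination (purple) and the difference between replicates (grey), in percent, for each tested member. Bars are ordered by the dose share, from 73.9% for Parp9 at the top to the genotype-led Isg15 and Ifi35 (88.2% and 91.3% genotype) at the bottom.

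The receptors and kinases upstream of these genes were read from a list of 28, of which 23 were tested. With RA 7 rose and 0 fell in WT, 0 were called under the KO label (limma), and 14 rose and 5 fell in TG, where of all tested genes 6.67% rose and 3.47% fell in WT, 0.143% were called under the KO label, and 19.7% rose and 19.4% fell in TG. Ifngr1, the ligand-binding chain of the IFNγ receptor, stood at 15.0 and 14.2 FPKM in untreated WT and at 36.3 and 36.9 with RA, at 13.6 and 12.01 in TG, then 79.0 and 67.4, and under the KO label at 21.0 and 18.8, then 31.5 and 28.0. Doses separated in every genotype. Ifngr1 rose by 1.27 ± 0.10 in WT (adjusted p = 0.00041) and by 2.42 ± 0.10 in TG (adjusted p = 7.5e-07), and the TG rise was larger by 1.15 ± 0.14 (adjusted p = 0.0019). Ifngr2, the other chain, rose by 0.49 ± 0.06 in WT (adjusted p = 0.0024) and 1.10 ± 0.06 in TG (adjusted p = 3.6e-06). The Ifnar2 chain of the type I receptor rose by 0.36 ± 0.06 in WT (adjusted p = 0.011), a call not made in the fits lacking WT 0 nM replicate 2 (0.35) or WT 10 nM replicate 1 (0.34), and by 0.57 ± 0.06 in TG (adjusted p = 0.00021). In TG the kinase gene Ikbke rose by 1.48 ± 0.16 (adjusted p = 0.00016) and Ptpn6, which encodes the phosphatase SHP-1, by 0.61 ± 0.06 (adjusted p = 8.3e-05). Ptpn6 also rose in WT (0.29 ± 0.06, adjusted p = 0.019), a call that 3 of 4 fits lacking 1 library did not make (0.23 to 0.34). Jak2 was lower in TG than in WT without RA (-0.37 ± 0.07, adjusted p = 0.022; 3 of 4 such fits did not call it, -0.47 to -0.27), as was Ifngr2 (-0.37 ± 0.06, adjusted p = 0.015; not called in any of 4, -0.41 to -0.34). With RA, Ifngr1 was higher in TG than in WT (0.97 ± 0.10, adjusted p = 0.00043), while Tmem173, which encodes the cGAS partner STING (-0.51 ± 0.07, adjusted p = 0.0024), and Mb21d1 (-0.51 ± 0.08, adjusted p = 0.0035) were lower. The 5 falls in TG were Mb21d1, which encodes the DNA sensor cGAS (-0.58 ± 0.08), the feedback inhibitor Socs1 (-1.52 ± 0.23), Tbk1 (-0.22 ± 0.05), Myd88 (-0.36 ± 0.09) and Tyk2 (-0.21 ± 0.05).

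Transcripts of the interferons were scarce. Ifng ranged from 0.182 to 1.95 FPKM over the 12 libraries and Ifnb1 reached at most 0.209.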

How the data were processed

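Naive CD4 T-cell RNA of 12 libraries was sequenced as single 100 bp reads from stranded libraries, per the labels' protocols. The authors deposited 1 table of FPKM per gene. Tools listed in the submitters' processing notes are STAR, DESeq2, HTSeq 0.6.1 and Trimmomatic 0.32, with no roles. Strand setting and annotation release: not given in the sources used here. GENCODE M21 (GRCm38) gave positions and exon lengths, and RefSeq (GRCm38.p6) promoters. The smallest steps between low FPKM values gave each library's depth, and 95.3 to 95.9% of values of up to 20 reads lay within 0.02 of a whole number. Depth bears on counting error only.

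Genes reaching 1 FPKM in 2 or more libraries (11922) were each fitted with limma 3.58.1 (R 4.3.3; lmFit, contrasts.fit, eBayes with a trend) on log2(FPKM + 1), with 1 mean for each of 6 groups and 6 residual degrees of freedom. The 9 comparisons were 3 of RA against none within a genotype, 4 of a genotype (KO or TG) against WT at 1 dose and 2 of an RA effect against that in WT. P-values are two-sided and adjusted by Benjamini-Hochberg over all tested genes within a comparison, at a threshold of 0.05. Changes on this scale understate those of low genes. Values are mean ± SD of FPKM and log2 fold change ± SE.

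Members, gene lists, tests and alternatives were chosen with earlier results of these data known. Per-library values are given for up to 6 called members with the largest change in each comparison among those with a mean FPKM of at least 2, and always for Ddx58, Dhx58 and Isg15 (1 further gene of this rule is not reported here); some others, and the neighbours of Trim30d, were chosen after their values were seen. Of the lists of pathway and further interferon-stimulated genes, up to 4 called members with the smallest p are named by rule. Alternatives were a pseudocount of 0.1, no filter (25908 genes), upper-quartile scaling, only the libraries compared, the replicate number as a block, a sex term, voom on recovered reads (11910 genes) and leaving out each library. On simulated reads for RA in WT (11910 genes, overdispersion 0.02) the code called 5 of 67 genes changed 1.5-fold, 42 of 67 changed 2-fold, 64 of 66 changed 4-fold and 14 of 11710 unchanged. Software was pandas 2.3.3, numpy 2.4.6 and matplotlib 3.10.9 under Python 3.11.15.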

Additional observations from a re-analysis of the deposited data

Results flagged for a closer look

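For 8 members the effect of RA in TG differed from that in WT in limma's test of the difference itself. Rises were larger in TG for Usp18 (1.28 ± 0.24, difference of log2 fold changes ± SE, adjusted p = 0.014), Zbp1 (0.96 ± 0.19, adjusted p = 0.020), Dtx3l (0.69 ± 0.14, adjusted p = 0.021) and Parp9 (0.57 ± 0.14, adjusted p = 0.039). Ifit1 (0.71 ± 0.16) is also among the 8, without a p-value because its TG level was the condition of its being tested. Falls were larger in TG for Gbp4 (-1.24 ± 0.31, adjusted p = 0.046), Gbp5 (-1.02 ± 0.23, adjusted p = 0.034) and Slfn2 (-0.49 ± 0.12, adjusted p = 0.047). Of all tested genes 7.48% passed this test. Gbp2 had the widest difference of the 32 tested members (-1.65 ± 0.47) and missed the threshold (adjusted p = 0.075).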

How the results depend on the processing

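Counts of members called moved with the settings as follows. For RA in WT 6 members were called in the reported fit, 3 with no filter on low values, 0 with only the libraries compared and 2 to 7 without 1 library. The fit lacking WT 0 nM replicate 2 called 2 (Irgm1 and Gbp5), the one lacking WT 10 nM replicate 1 called 3, and those lacking WT 0 nM replicate 1 or WT 10 nM replicate 2 called 4 and 7. For KO against WT without RA the reported 5 became 2 with no filter, 0 with only the libraries compared, 0 with a sex term and 0 to 1 without 1 library. With RA the reported 2 became 0 with only the libraries compared, 0 with a sex term and 0 to 2 without 1 library (0 without WT 10 nM replicate 2 or KO 10 nM replicate 1). For TG against WT without RA the reported 4 became 2 with no filter, 1 with only the libraries compared and 0 to 2 without 1 library (0 without either WT library), and with RA the reported 6 became 3 to 4 (3 without either TG library). For the RA effect in TG minus that in WT the reported 8 became 5 with a pseudocount of 0.1, 4 with no filter, 1 with only the libraries compared and 0 to 6 without 1 library: 0 without WT 0 nM replicate 1 and 1 without TG 10 nM replicate 2. RA in TG gave 19 to 24 members without 1 library against 23, and RA under the KO label and its difference from WT gave 0 to 0. Such fits take the spread of the remaining library's group from the other 5 groups.

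Groups share the replicate numbers 1 and 2, but nothing in the labels says that a number marks a shared mouse or day. In TG the number goes with sex at both doses. Deviations of replicate 1 from its group mean correlated over genes at 0.327 between doses in WT, 0.3197 under the KO label and 0.147 in TG, and at 0.0595 to 0.206 between genotypes. With the replicate number as a block the counts were 14 for RA in WT, 8 and 4 for KO against WT without and with RA, and 24 for RA in TG.

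Beyond counts, the 104 called values of genes checked one by one kept their sign under every setting run. Of these, 50 missed the threshold with only the libraries compared, 23 with no filter, 18 with a sex term, 3 with voom, 5 with upper-quartile scaling, 7 with a pseudocount of 0.1 and 0 with the block. Upper-quartile scaling moved the median of all genes by at most 0.0196. With 2 libraries a group, the simulated test called 5 of 67 genes changed 1.5-fold and 42 of 67 changed 2-fold. Most effects of 1.5-fold and a part of those of 2-fold may thus go undetected.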

Other observations

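Interferon-stimulated genes outside the 43 members, from a list of 62 of which 36 were tested, had 8 rises and 0 falls with RA in WT, 0 calls under the KO label (limma) and 17 rises and 3 falls in TG. Of all tested genes 6.67% rose and 3.47% fell in WT, 0.143% were called under the KO label, and 19.7% rose and 19.4% fell in TG. The TG counts include Ifit1bl1 among the rises and Cxcl10 among the falls, both tested only because of TG libraries where they were high. Ifit1bl1 stood at 5.18 and 2.18 FPKM in TG with RA and at no more than 0.828 elsewhere, so its call is no evidence of a rise. Tgtp1, a GTPase of the immunity-related family, stood at 1.29 and 1.46 FPKM in untreated WT and at 5.63 and 4.71 with RA, and in TG at 0.917 and 0.538, then 10.3 and 8.34. It rose by 1.37 ± 0.15 in WT (adjusted p = 0.0012) and by 2.58 ± 0.15 in TG (adjusted p = 4.1e-06), a difference of 1.21 ± 0.21 (adjusted p = 0.011). Reads of Tgtp1 and its near copy Tgtp2 may be divided between them. Ifit2, the neighbour of Ifit1, rose in TG by 1.09 ± 0.09 (adjusted p = 4e-05), from 9.43 and 7.72 to 19.9 and 18.7 FPKM, and Lgals3bp, a secreted galectin-binding glycoprotein, by 1.30 ± 0.10 (adjusted p = 2.9e-05). In WT Lgals3bp rose by 0.75 ± 0.10 (adjusted p = 0.0037), Parp10, a mono-ADP-ribosyltransferase, by 0.55 ± 0.08 (adjusted p = 0.0062) and Gm12250, a GTPase of the immunity-related family, by 0.81 ± 0.15 (adjusted p = 0.015), the last not called in 3 of 4 fits lacking 1 library (0.78 to 0.84). Phf11b was higher in TG than in WT with RA (1.11 ± 0.19, adjusted p = 0.0071), a call that ended in the fit lacking TG 10 nM replicate 1 (0.96).

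Cxcl10, a chemokine gene that IFNγ induces, stood at 2.77 and 3.44 FPKM in untreated TG and at 0.132 and 0.140 with RA, and between 0.148 and 0.602 in the 8 libraries of the other genotypes. It passed the filter only through the 2 untreated TG libraries, so its height there was a condition of its being tested, and its values are given with no test. Ly6e, whose product blocks the entry of some viruses, was higher in TG without RA, at 95.1 and 88.0 FPKM against 37.8 and 45.6 in WT (1.12 ± 0.13, adjusted p = 0.0034).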
